A study of Mus musculus with 32 samples.

Results

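Heart and skeletal muscle are the striated muscles of the body, and the data describe how their transcriptomes differ in wild-type mice. The comparison holds 8 of the 32 libraries of the series: 4 from the heart and 4 from the skeletal muscle of male C57BL/6J mice that the labels call wild type (WT). They were chosen by their labels alone, and all genes entered the comparison. Each library is bulk RNA from 1 tissue sample, and the submitters describe 4 individual mice per tissue. The labels name neither the muscle nor the chambers of the heart that were taken, and they do not say whether heart and muscle with the same number came from the same mouse. Where they help to read a result, WT liver and WT brown adipose tissue (BAT) and the heart and muscle of the Smim30 knockout line, labelled Mut, are given as well, with 4 libraries each, also from male C57BL/6J mice. Every group carries that same background, and no drug or diet is named.

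In both tissues myosin heads on thick filaments pull on actin-based thin filaments when calcium binds the troponin complex. Most parts of this machine are encoded by small gene families with one member used by heart and another by fast skeletal fibres. Heart beats without pause and draws on fatty acids and respiration, whereas fast skeletal fibres work in bursts fuelled largely by glycogen and glycolysis.

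The unit throughout is TPM, the usual transcript abundance scaled to a fixed library total, which corrects for transcript length and gives every library the same sum, so that levels of different genes can be set beside each other. Read totals cannot be recovered from TPM. Depth is therefore unknown, and precision was read from the spread between the 4 libraries of a tissue. Heart libraries held 11948 to 12326 genes at 1 TPM or more, and muscle libraries 11608 to 11804. Smim30, the gene targeted in the Mut line, averaged 34.6 ± 2.08 TPM in WT heart and 34.3 ± 1.20 TPM in WT muscle (SD, n = 4 each; exact permutation p = 0.886, two-sided). The tissue labels matched the defining genes: Myh6, Myl2, Tnni3, Actc1, Ryr2 and Nkx2-5 were higher in all 4 heart libraries, and Acta1, Myh4, Mylpf, Tnni2, Ryr1 and Actn3 were higher in all 4 muscle libraries.

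Among the 12174 genes that averaged 1 TPM or more, 8847 differed between the tissues at a limma adjusted p under 0.05, which is 72.7% of those tested. Heart was higher for 3933 (32.3%) and lower for 4914 (40.4%). Groups whose 4 and 4 values do not overlap made up 66.6% of the genes tested. Because most genes pass, a call alone says little, and the larger differences carry the description below. At least 2-fold on the scale of log2(TPM + 1), 1197 genes were higher in heart (9.83%) and 1364 were lower (11.2%). Together that was 2561 genes, where heart and BAT differed at least 2-fold in 2836, muscle and BAT in 3996, and heart and liver in 5456. At any size heart and BAT had fewer called genes than heart and muscle, 7734 (62.7%). The median gene lay at -0.08 log2 in heart relative to muscle. Rescaling the libraries without mitochondrial genes and the 10 most abundant genes moved that median by 0.31 log2 and gave 6607 genes higher (47.7% of those tested then) and 3389 lower (24.4%), so that heart was higher in 66.1% of the calls instead of 44.5%. Small differences therefore depend on the scaling, while the contractile genes described first lie far outside that range.

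The thick filament separated the tissues almost completely. Myh6, the alpha myosin heavy chain of the adult mouse heart, had 4463.1, 4673.2, 4365.4 and 4997.1 TPM in the heart libraries, against 75.5, 72.7, 103 and 71.0 TPM in the muscle libraries. Myh4, the heavy chain of the fastest skeletal fibres, had 207, 156, 141 and 151 TPM in heart, against 11425.9, 9566.2, 12154.3 and 13517.6 TPM in muscle. The groups were far apart for both genes and in opposite directions, by 5.84 ± 0.11 log2 for Myh6 and -6.15 ± 0.13 log2 for Myh4 (difference ± SE; limma adjusted p = 8.69e-12 and 1.78e-11). A member of a gene list that passed the filter through 1 tissue only had to differ, so counts over lists are given for members that averaged at least 1 TPM in each tissue. Every such count is to be set beside the shares of all genes tested, 32.3% higher in heart and 40.4% lower. Of 9 skeletal-type thick-filament genes 8 did, and all 8 were lower in heart (median -6.05 log2), among them Mylpf and Myl1, the light chains of fast myosin, and Mybpc2, the fast form of the myosin-binding protein C. Of 8 heart-type genes of the thick filament 7 reached that level, and 6 of them were higher in heart. The exception was Myh7, the slow myosin heavy chain that the heart of large mammals and slow skeletal fibres share. Myh7 had 25.1, 24.1, 30.3 and 30.0 TPM in heart, against 121, 161, 173 and 118 TPM in muscle (-2.33 ± 0.13 log2, adjusted p = 4.20e-08).

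The thin filament showed the same exchange. Actc1, cardiac actin, averaged 5448.4 ± 444 TPM in heart and 180 ± 68.7 TPM in muscle, and Acta1, skeletal actin, averaged 307 ± 66.4 TPM in heart and 17740.8 ± 2056.1 TPM in muscle (SD, n = 4 each). For every troponin subunit the member used by heart took at least 87.3% of its pair in each heart library and at most 1.91% in each muscle library: Tnni3 against Tnni2 (the inhibitory subunit), Tnnt2 against Tnnt3 (the subunit that binds tropomyosin) and Tnnc1 against Tnnc2 (the calcium sensor). All 10 skeletal thin-filament genes were lower in heart (median -5.76 log2). Tropomyosin is the cable along the actin strand. Tpm1 was among the 10 most abundant genes of both, at 6147.1 ± 300 TPM in heart and 17854.9 ± 2234.2 TPM in muscle, a difference of -1.53 ± 0.09 log2. Tpm2 and Tpm3 were lower as well, by -5.65 and -2.87 log2. Of the 32 filament genes at 1 TPM or more in each tissue, 11 were at least 2-fold higher in heart, 20 at least 2-fold lower and 1, Lmod2, a capping protein of the thin filament, lay within 2-fold at 255 ± 25.4 TPM in heart and 143 ± 24.7 TPM in muscle.

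**Figure D1:**
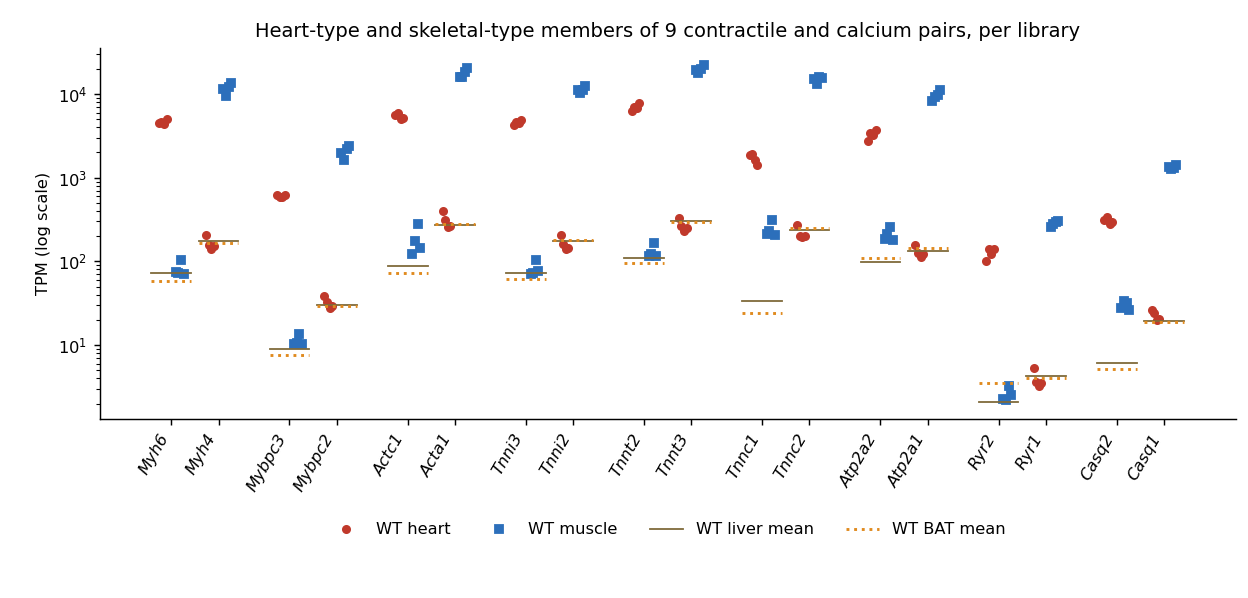
Level of 18 genes (9 pairs, heart-type member first) in each WT heart library (red circles, left) and each WT muscle library (blue squares, right), in TPM on a log axis, with the WT liver and WT BAT means as lines. In the 9 skeletal-type genes the heart libraries lie near the liver and BAT means.

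The low values need to be read against a level that all tissues share. The 8 skeletal-type thick-filament genes of at least 100 TPM in muscle read 1.23% to 1.71% of their muscle level in heart (median 1.39%), 1.30% to 1.54% in liver and 1.43% to 2.04% in BAT. Myh4, for example, averaged 164 TPM in heart, 176 TPM in liver and 168 TPM in BAT. In the same way 14 hepatocyte genes read 0.819% to 1.21% of their liver level in heart and 1.03% to 1.44% in muscle. Among the 2561 genes that differed at least 2-fold, 162 (6.33%) had their lower tissue at or under 2% of the highest WT tissue, 44 of those higher in heart and 118 lower. For these genes the size of the difference is limited by that level, and a true level below it could not be measured. The 29 contractile, Z-disc and calcium genes that were lower in heart with heart at or under 2% all had their highest heart value in heart library 1. The 7 such genes that were higher in heart all had their highest muscle value in muscle library 3. The source of this shared level was not tested.

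Some low-side values stood clear of it. Myl2, the ventricular regulatory light chain that slow fibres also use, averaged 523 ± 59.6 TPM in muscle, against 120 TPM in liver and 97.6 TPM in BAT. Tnnc1 averaged 241 ± 49.5 TPM in muscle, against 33.7 TPM in liver and 24.4 TPM in BAT. Both are known from slow skeletal fibres, and Tnni1 and Tnnt1, the slow troponins I and T, were present in muscle as well. Tnni1 averaged 1.33 ± 0.396 TPM in heart and 105 ± 26.8 TPM in muscle, and Tnnt1 averaged 8.87 ± 1.16 TPM in heart and 211 ± 36.3 TPM in muscle. In bulk tissue fewer cells of a type and less RNA per cell cannot be told apart.

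The actin pair serves as the example, and the DNA upstream of its start sites is shown because both genes are near the top of their tissue. The 250 bases before each start site are given from RefSeq (GRCm38.p6), 5′ to 3′ on the gene's own strand, and that of Myh4 is shown as well. Actc1 lies on chromosome 2 (chr2:114052876-114053125, minus strand), Acta1 on chromosome 8 (chr8:123894776-123895025, minus strand) and Myh4 on chromosome 11 (chr11:67237562-67237811, plus strand). Capitals mark CArG boxes, the motif bound by serum response factor, and MEF2 sites, the motif bound by the MEF2 family.
Actc1: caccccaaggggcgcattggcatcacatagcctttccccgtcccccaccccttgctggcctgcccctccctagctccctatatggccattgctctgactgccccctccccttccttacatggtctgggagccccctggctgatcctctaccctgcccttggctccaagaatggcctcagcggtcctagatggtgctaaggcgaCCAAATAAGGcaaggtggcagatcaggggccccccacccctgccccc
Acta1: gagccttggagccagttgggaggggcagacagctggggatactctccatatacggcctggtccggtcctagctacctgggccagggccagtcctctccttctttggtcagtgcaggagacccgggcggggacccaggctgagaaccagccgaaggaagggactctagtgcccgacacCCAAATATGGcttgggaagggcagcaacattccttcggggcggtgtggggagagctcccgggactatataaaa
Myh4: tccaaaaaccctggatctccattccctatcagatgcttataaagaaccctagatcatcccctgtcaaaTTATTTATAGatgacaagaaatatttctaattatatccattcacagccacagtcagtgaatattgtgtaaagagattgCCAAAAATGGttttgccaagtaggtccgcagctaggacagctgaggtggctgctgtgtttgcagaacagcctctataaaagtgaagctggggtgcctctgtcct

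The Actc1 and Acta1 windows each held 1 CArG box, 38 to 47 bases upstream of the start in Actc1 and 64 to 73 bases upstream in Acta1. The Myh4 window held 1 CArG box and 1 MEF2 site. The windows of Tnni3, Tnnc1, Tnnc2 and Myh6 were searched in the same way and held neither motif. They are not shown. The shorter motif TATAAA, on either strand, was in the Acta1 and Myh4 windows, where one copy in Myh4 overlaps the MEF2 site. MCAT (CATTCC, either strand) was in both as well, and also in the Tnnc1 and Myh6 windows. Over the 11898 RefSeq windows that matched 9252 of the tested symbols, 1.21% held a CArG box and 1.92% a MEF2 site. The shares were 2.05% and 2.47% in windows of genes at least 2-fold higher in heart, and 2.07% and 3.77% in windows of genes at least 2-fold lower. TATAAA was in 7.84% of the windows of genes higher in heart, 8.06% of those lower and 7.00% of all. CATTCC was in 14.0%, 11.3% and 10.9% of the same sets. Genes of both tissues share these motifs, and the matches are a description of letters, not of binding.

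The exchange between family members was followed through 37 pairs of related genes. The pairs were chosen with earlier results of these data known. In 31 pairs the first-named member was higher in heart and the second was lower, both called, and in 25 both differed at least 2-fold. Of all genes tested, 72.7% were called and 21.0% were called at least 2-fold apart. Cacnb2 and Tbx5 averaged under 1 TPM in muscle, and Slc8a3 under 1 TPM in heart. The filter set the direction of these genes, and their pairs are in both counts. Levels did not overlap between the tissues for 66.6% of all genes tested. The share of the first-named member did not overlap between the tissues in 35 pairs. It was not always the main form in heart: in 10 pairs, all of enzymes, respiration or the ribosome, it held 6.0% to 48.2% of the pair there. The 6 pairs without this called exchange belong to calcium handling, respiration and glycolysis. Pln and Sln, which encode the small inhibitors of the calcium pump, were both higher in heart. Jph2 and Jph1, which tie the cell membrane to the calcium store, were both lower. Cox7a2 and Cox7a1 were both higher, as were Cox6a1 and Cox6a2, while Cox8b and Eno1 did not pass the test.

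**Figure D2:**
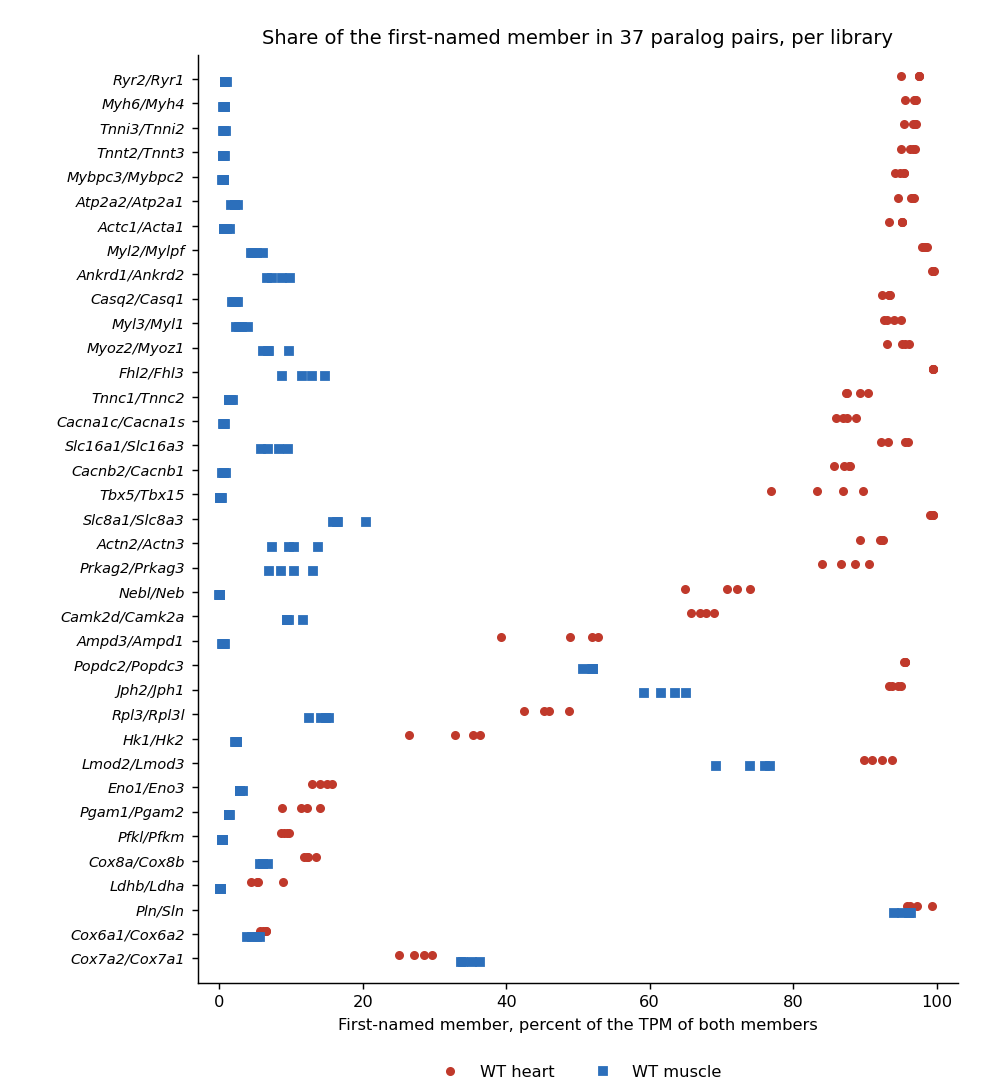
Share of the first-named member in the summed TPM of each of 37 pairs, with the 4 WT heart libraries (red circles, above) and the 4 WT muscle libraries (blue squares, below) of each pair. The shares overlap for Pln/Sln and Cox6a1/Cox6a2 and are separate for the other 35 pairs.

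Among 34 Z-disc and M-band genes, which anchor the filaments, 6 were higher in heart and 27 lower, with a median of -1.51 log2. Fhl2, a LIM-domain protein of the cardiac sarcomere, had 1059.1, 1154.2, 1081.2 and 1076.9 TPM in heart, against 21.4, 21.3, 28.9 and 19.6 TPM in muscle (5.54 ± 0.10 log2). Csrp3, muscle LIM protein, had 920, 1121.0, 1095.6 and 1026.5 TPM in heart, against 140, 173, 96.2 and 88.7 TPM in muscle (3.10 ± 0.18 log2). The stretch-responsive Ankrd1 and Ankrd2 moved in opposite directions, at 4.49 and -5.61 log2. Synm, an intermediate filament protein, averaged 4.36 ± 0.330 TPM in heart and 199 ± 14.2 TPM in muscle. Titin (Ttn), the giant spring of the sarcomere, averaged 49.6 ± 2.71 TPM in heart and 190 ± 10.3 TPM in muscle, and desmin (Des) averaged 421 ± 33.4 TPM in heart and 1087.9 ± 58.7 TPM in muscle. For Ttn and Des the tissues did not overlap, and both lay well above liver and BAT in each.

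Calcium release and reuptake genes lay on both sides. Of 32 genes 29 averaged at least 1 TPM in each tissue, 9 of them higher in heart and 20 lower (median -3.31 log2). Some were abundant in both tissues, such as Hrc, a calcium-binding protein of the store, at 383 TPM in heart and 436 TPM in muscle. Ryr2, the cardiac calcium release channel, had 101, 141, 124 and 141 TPM in heart, against 2.27, 2.22, 3.20 and 2.51 TPM in muscle. Ryr1, its skeletal counterpart, had 5.29, 3.66, 3.22 and 3.56 TPM in heart, against 256, 276, 296 and 304 TPM in muscle. Both low sides lay near the shared level. Ryr2 averaged 2.55 TPM in muscle, 2.10 TPM in liver and 3.47 TPM in BAT. Ryr1 averaged 3.93 TPM in heart, 4.21 TPM in liver and 4.08 TPM in BAT. The calcium pump followed the same order, with Atp2a2 at 3.97 ± 0.12 log2 and Atp2a1 at -6.21 ± 0.11 log2. The muscle level of Atp2a2, 209 ± 35.8 TPM, was above the 98.6 TPM of liver and 109 TPM of BAT, whereas the heart level of Atp2a1, 129 ± 19.4 TPM, was below the 134 TPM of liver. Cacna1c and Cacna1s, the voltage sensors of the cardiac and skeletal membrane, differed by 4.43 and -4.75 log2. Parvalbumin (Pvalb), the soluble calcium buffer of fast fibres, was the gene furthest below muscle among those tested with groups that do not overlap, at 114 ± 15.0 TPM in heart and 8762.6 ± 1174.1 TPM in muscle. Its heart level was under the 120 TPM of liver and 130 TPM of BAT. The shared low level therefore limits its difference, and its rank has little meaning.

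The small regulators of the pump were split. Phospholamban (Pln) had 2184.9, 2574.7, 2762.7 and 2753.8 TPM in heart, against 45.8, 45.4, 66.4 and 47.4 TPM in muscle (5.63 ± 0.12 log2), and liver averaged 42.1 TPM. Myoregulin (Mrln), the regulator described in skeletal muscle, had 2.36, 2.73, 2.32 and 4.32 TPM in heart, against 137, 85.2, 115 and 102 TPM in muscle (-4.82 ± 0.17 log2). Sarcolipin (Sln), which mouse atria are known to express, had 64.0, 112, 18.3 and 110 TPM in heart, against 1.88, 2.27, 2.47 and 2.97 TPM in muscle. The heart libraries lay above the muscle libraries for Pln and Sln and below them for Mrln, and for Sln heart library 3 was far below the other heart libraries.

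Ion channels and junctions differed as well. Of 27 genes of cardiac excitation 25 passed the filter, 14 of them through heart alone. Of the other 11, at 1 TPM or more in each tissue, 9 were higher in heart and 2 lower. Scn4a, the skeletal sodium channel, averaged 6.10 ± 0.490 TPM in heart and 105 ± 12.8 TPM in muscle. The heart level of Scn4a was above the 1.76 TPM of liver and 1.73 TPM of BAT. Gja1 (connexin 43, the main gap junction protein of the ventricle) differed by 3.44 ± 0.09 log2, and the desmosome genes Dsp, Pkp2 and Dsg2 by 5.02, 3.44 and 3.50 log2. The 2 lower genes were Kcnj2 and Kcnj12, inward rectifier potassium channels, at -0.46 and -1.32 log2. Of 12 skeletal excitation genes 8 averaged at least 1 TPM in each tissue. Of these 7 were lower in heart and 1 was not called. Clcn1, the chloride channel of the fibre membrane, was among the lower ones (-3.55 log2). Abcc8, a subunit of ATP-sensitive potassium channels, passed the filter through heart alone, which set its direction (2.41 log2). At the neuromuscular junction 9 of 14 genes reached that level, 3 of them higher, 3 lower and 3 not called. These shares are near those of all genes tested, 32.3% higher and 40.4% lower. Chrna1, a subunit of the acetylcholine receptor, passed the filter through muscle alone. It had 0.0791, 0.0230, 0.0471 and 0.0592 TPM in heart, against 3.32, 3.96, 4.68 and 5.07 TPM in muscle.

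Transcription factors were at far lower levels than the sarcomere genes. Of 14 cardiac factors 11 passed the filter, 10 of them through 1 tissue alone, so their values are given without a count. Nkx2-5 had 23.2, 24.9, 22.3 and 27.3 TPM in heart, against 0.388, 0.318, 0.486 and 0.289 TPM in muscle, and liver averaged 0.440 TPM. Gata4, Hand2, Tbx20 and Tbx5 were higher by 4.46, 3.78, 3.26 and 3.04 log2. Of 17 skeletal factors 14 passed the filter, 8 of them through muscle alone. Of the other 6, 5 were lower in heart and 1 was not called. Myf6, the myogenic factor of mature fibres, had 1.40, 0.924, 0.988 and 1.12 TPM in heart, against 89.7, 88.6, 62.5 and 85.3 TPM in muscle. Myod1 averaged 0.134 ± 0.0522 TPM in heart and 9.31 ± 2.22 TPM in muscle. Within the MEF2 family, Mef2a did not pass the test, at 33.4 TPM in heart and 37.1 TPM in muscle (-0.15 log2, and 0.16 log2 and called after rescaling). Mef2c was lower in heart, at 12.4 TPM, against 151 TPM in muscle.

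Genes that record body position formed a further group. Of 23 listed 14 passed the filter, 12 of them through 1 tissue alone, so their values are given without a count. Meis1 averaged 7.26 TPM in heart and 1.43 TPM in muscle. Hoxc10, a gene of the hindlimb and lumbar region, had 0.799, 0.523, 0.320 and 0.574 TPM in heart, against 41.9, 35.0, 35.0 and 41.3 TPM in muscle. Tbx15, a factor of limb and trunk muscle, had 1.86, 1.73, 1.54 and 1.66 TPM in heart, against 122, 118, 101 and 112 TPM in muscle. Hoxa10, Hoxd9 and Hoxc11 differed by -3.62, -3.43 and -2.53 log2 in the same direction. Pitx1 was near 0 in both tissues, at 0 TPM in heart and 0.0677 TPM in muscle.

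**Figure D3:**
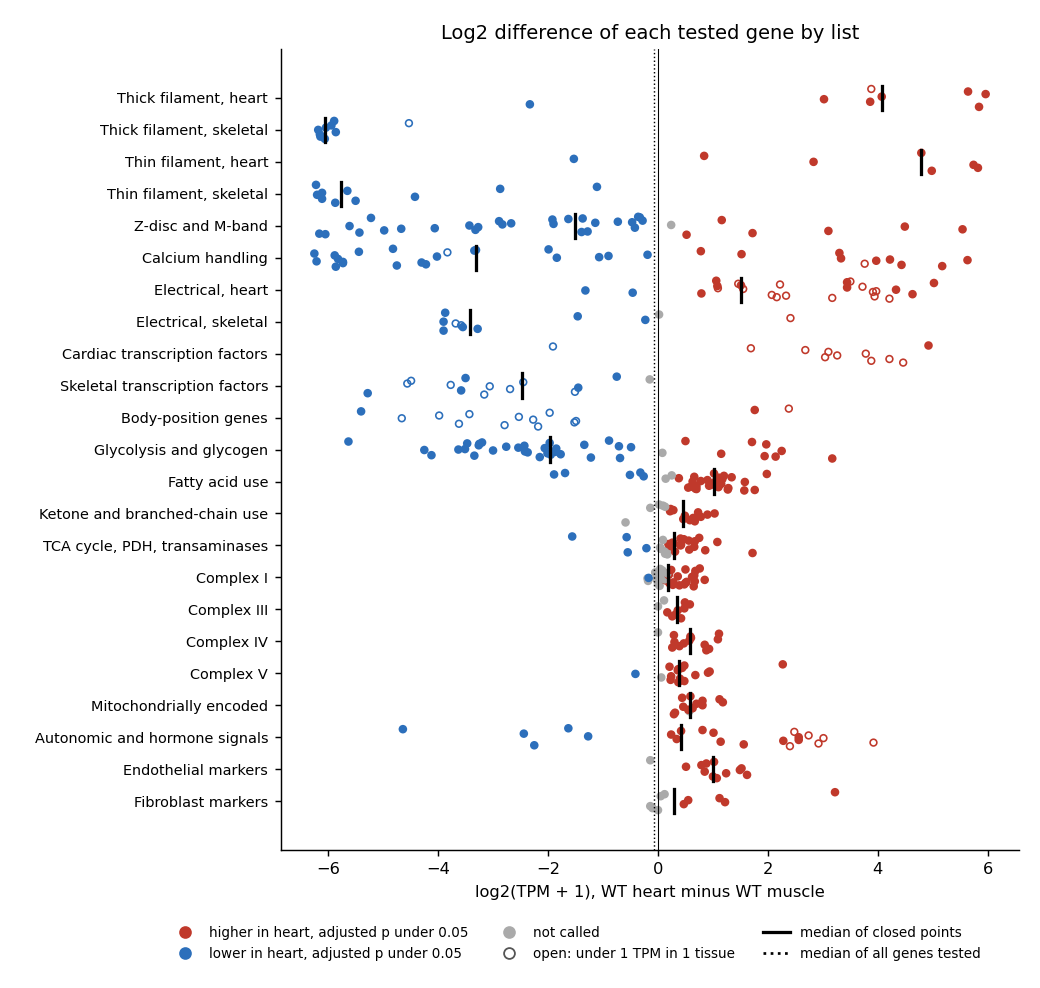
Difference of log2(TPM + 1), WT heart minus WT muscle, for each tested gene of 23 lists, with red points higher and blue points lower in heart at adjusted p under 0.05, grey points not called, and open points for genes under 1 TPM in 1 tissue. A black bar marks the median of the closed points where there are at least 4. The contractile, calcium and factor lists reach beyond 4 log2 units in both directions, while the medians of complexes I, III, IV and V lie between 0.19 and 0.58.

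Fuel use divided the tissues by pathway. Of 39 genes of glycolysis and glycogen, 8 were higher in heart and 30 lower, with a median of -1.97 log2 where the median of all genes was -0.08. Aldoa, aldolase A, had 1609.1, 1672.3, 1473.7 and 1658.0 TPM in heart, against 15800.0, 15393.3, 16240.3 and 17707.7 TPM in muscle (-3.34 ± 0.07 log2). Pygm, which breaks down muscle glycogen, averaged 367 ± 28.0 TPM in heart and 2949.8 ± 346 TPM in muscle, and Pfkm, phosphofructokinase of muscle, averaged 352 ± 35.0 TPM in heart and 1564.6 ± 143 TPM in muscle. The groups did not overlap for any of the 3. Gapdh, Tpi1 and Ldha were also lower, by -1.95, -4.12 and -2.42 log2, but these genes have near-identical copies in the genome among which the authors' counting could split reads, so their values are uncertain.

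The 8 genes higher in heart were mostly the partners of muscle-type enzymes or their regulators. Hk1, the hexokinase of constitutive glucose use, averaged 30.4 ± 4.09 TPM in heart and 2.46 ± 0.176 TPM in muscle, and Hk2 averaged 62.4 ± 5.72 TPM in heart and 101 ± 3.80 TPM in muscle. Ldhb, the lactate dehydrogenase of oxidative tissue, had 36.5, 24.9, 23.9 and 21.0 TPM in heart, against 5.96, 5.16, 4.13 and 3.75 TPM in muscle. The lactate carriers took opposite sides. Slc16a1, known for lactate uptake, averaged 71.5 ± 12.8 TPM in heart and 20.9 ± 1.99 TPM in muscle, and Slc16a3, known for lactate release, averaged 4.24 ± 0.734 TPM in heart and 260 ± 49.7 TPM in muscle. The heart level of Slc16a3 was close to the 3.84 TPM of liver and of BAT. Pfkl and Pgam1 were higher by 2.14 and 1.15 log2, and Pfkfb2, the regulator of phosphofructokinase known from heart, by 1.97 log2.

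Fatty acid use ran the other way. Of 39 genes, 32 were higher in heart and 5 lower, where 32.3% of all genes tested were higher and 40.4% lower. Their median was 1.02 log2. Fabp3, the fatty acid carrier of the cytosol, had 4136.5, 3952.0, 3798.7 and 3494.9 TPM in heart, against 1575.4, 1866.9, 1755.7 and 1234.7 TPM in muscle (1.27 ± 0.12 log2). Cd36, the uptake protein of the membrane, averaged 804 ± 58.3 TPM in heart and 271 ± 34.7 TPM in muscle, and Acaa2, the last enzyme of the oxidation spiral, averaged 797 ± 38.6 TPM in heart and 268 ± 37.2 TPM in muscle. Lpl, Acot1 and Dgat2 were higher by 1.76, 1.98 and 1.34 log2. The lower genes included Ucp3, the uncoupling protein of muscle, at 34.2 ± 4.03 TPM in heart and 131 ± 26.5 TPM in muscle. Pdk4, which blocks pyruvate oxidation in fasting, averaged 207 ± 48.7 TPM in heart and 673 ± 156 TPM in muscle.

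The respiratory chain itself differed little. Median differences were 0.19 log2 for the 37 genes of complex I, 0.34 for the 10 of complex III, 0.58 for the 14 of complex IV and 0.39 for the 16 of complex V. In these 77 nuclear genes 56 were higher in heart, 2 lower and 19 not called. Over all genes tested 32.3% were higher and 40.4% lower, or 47.7% and 24.4% after rescaling. Atpif1, the inhibitor of ATP synthase, stood out at 130 ± 8.82 TPM in heart and 26.2 ± 3.06 TPM in muscle (2.27 ± 0.09 log2). Within complex IV, Cox7a1, a muscle form of a small subunit, averaged 1294.8 ± 170 TPM in heart and 603 ± 34.2 TPM in muscle, whereas Cox8b, another muscle form, averaged 1512.7 ± 82.8 TPM in heart and 1512.1 ± 101 TPM in muscle (0.32 log2 higher in heart after rescaling). Of 27 genes of the TCA cycle, pyruvate dehydrogenase with its regulators, and the linked transaminases, 17 were higher and 4 lower (median 0.29 log2). Idh2, an isocitrate dehydrogenase of the matrix, was furthest apart, at 913 ± 36.6 TPM in heart and 283 ± 72.8 TPM in muscle. Of 17 ketone and branched-chain amino acid genes 12 were higher and none was lower. After rescaling without mitochondrial genes and the 10 most abundant, these medians rise by the same shift as all genes, to 0.51 for complex I and 0.90 for complex IV.

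Mitochondrially encoded genes took 43.7%, 41.2%, 41.3% and 41.7% of the TPM in heart, against 28.4%, 28.7%, 27.2% and 24.3% in muscle. The groups did not overlap, and the exact permutation p was 0.0286, the smallest that 4 against 4 libraries can give. Of the 13 protein-coding mitochondrial genes, 12 were higher in heart, with a median of 0.59 log2. With 5 nuclear genes of near-identical sequence added, the shares averaged 57.4% ± 2.08 in heart and 39.4% ± 2.29 in muscle. The 10 most abundant other genes took 5.46% ± 0.151 in heart and 14.5% ± 1.44 in muscle.

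**Figure D4:**
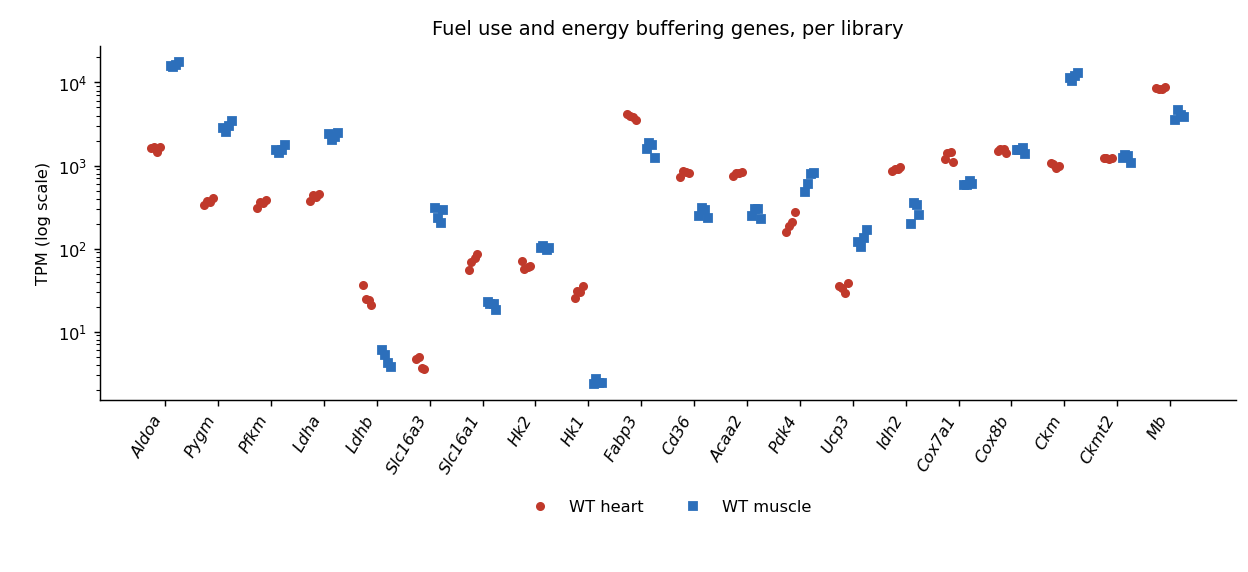
Level of 20 genes of fuel use and energy buffering in each WT heart library (red circles, left) and WT muscle library (blue squares, right), in TPM on a log axis. Glycolytic genes such as Aldoa and Pygm lie lower in heart, Fabp3, Cd36 and Acaa2 lie higher, and Cox8b and Ckmt2 coincide.

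Energy buffering combined both patterns. Ckm, the cytosolic creatine kinase, averaged 1007.8 ± 58.9 TPM in heart and 11663.3 ± 1006.6 TPM in muscle, while its mitochondrial partner Ckmt2 had 1247.3, 1237.7, 1214.0 and 1231.1 TPM in heart, against 1223.1, 1330.6, 1295.2 and 1069.7 TPM in muscle. Myoglobin (Mb), the oxygen store, was the most abundant gene of the heart apart from mitochondrial sequences, at 8501.1 ± 185 TPM in heart and 4008.0 ± 483 TPM in muscle. Ampd1, the AMP deaminase of fast fibres, averaged 9.71 ± 1.18 TPM in heart and 703 ± 106 TPM in muscle, which put its heart level at that of liver (10.1 TPM). Slc25a13 and Slc25a12, the aspartate and glutamate carriers of the malate shuttle, differed by 3.24 and -1.35 log2. Of 7 polyamine and amino acid genes 6 averaged at least 1 TPM in each tissue, 4 of them lower in heart, led by Smox, which oxidises spermine, at 9.32 ± 0.878 TPM in heart and 194 ± 83.1 TPM in muscle.

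What the striated muscles share was described by a rule of level: 134 genes, 9 of them with provisional names, averaged at least 10 TPM in each tissue and at least 8 times the higher of liver and BAT. Of these, 73 lay within 2-fold of each other, 8 were at least 2-fold higher in heart and 53 at least 2-fold lower. Ckmt2 was the closest of the abundant ones, and Cav3, the caveolin of muscle, did not pass the test either, at 34.2 TPM in heart and 35.8 TPM in muscle (limma adjusted p = 0.538). The 95% intervals of the log2 difference were -0.15 to 0.17 for Ckmt2 and -0.27 to 0.14 for Cav3. After rescaling without mitochondrial genes and the 10 most abundant, they were higher in heart by 0.32 and 0.25 log2. Tcap, the cap of titin at the Z-disc, averaged 1368.6 ± 211 TPM in heart and 3296.2 ± 166 TPM in muscle, and Cryab, a small heat shock protein, averaged 1111.1 ± 116 TPM in heart and 605 ± 150 TPM in muscle. Of 20 ubiquitin ligases and chaperones of the sarcomere, 15 were lower in heart and 3 higher (median -0.70 log2). Of all genes tested, 40.4% were lower and 32.3% higher. After rescaling 11 of the 20 were lower and 5 higher (median -0.39 log2). Fbxo32 and Klhl41 differed by -2.08 and -3.03 log2, and Hspb7 was higher by 1.83 log2.

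Ribosomal protein genes were near level and their direction depends on the scaling. Of 46 genes 2 were higher, 26 lower and the median was -0.20 log2, whereas after rescaling 18 were higher, 5 lower and the median was 0.12 log2. The muscle-restricted pair departed from this. Rpl3, the common form, averaged 123 ± 14.2 TPM in heart and 55.6 ± 3.61 TPM in muscle, and Rpl3l, the form restricted to striated muscle, averaged 146 ± 5.65 TPM in heart and 335 ± 17.4 TPM in muscle. Rpl3 has many related copies in the genome, so its level is uncertain.

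Among 21 genes of autonomic and hormone signalling, which are receptors, cyclases, phosphodiesterases and kinase subunits, 15 averaged at least 1 TPM in each tissue. Of these 10 were higher in heart and 5 lower. Outside that count, Chrm2 and Adrb1 passed the filter through heart alone, which set their direction. Chrm2, the muscarinic receptor of the heart, averaged 19.1 ± 3.88 TPM in heart and 0.317 ± 0.0698 TPM in muscle. Adrb1, a beta adrenergic receptor, averaged 6.32 ± 0.634 TPM in heart and 0.386 ± 0.109 TPM in muscle. Of 17 secreted factors 13 reached that level, 10 of them higher in heart and 2 lower. Nppb, a natriuretic peptide, had 80.3, 48.6, 23.4 and 43.9 TPM in heart, against 1.51, 1.24, 1.02 and 1.41 TPM in muscle. Mstn, myostatin, was lower in heart by -4.42 log2. Ostn, musclin, is outside that count, since it passed the filter through muscle alone, and differed by -5.17 log2.

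Bulk tissue also holds other cells, and their markers differed. Beside the counts below, 32.3% of all genes tested were higher in heart and 40.4% lower. Of 12 endothelial markers 11 were higher in heart (median 1.01 log2), among them Pecam1 at 46.9 ± 9.18 TPM in heart and 21.8 ± 3.42 TPM in muscle. Their summed level was 423 to 510 TPM in heart and 237 to 337 TPM in muscle. Of 10 fibroblast markers 5 were higher and 5 not called, the collagen genes of fibrils among those not called. After rescaling 8 of the 10 were higher. Of 9 macrophage markers 8 were higher. The 5 red blood cell genes tested were all higher (median 2.54 log2), with sums of 3088.5 to 6407.9 TPM in heart and 545 to 781 TPM in muscle. Of 7 tendon markers 4 averaged at least 1 TPM in each tissue, and 3 of them were lower in heart. The lower ones were led by Thbs4 and Fmod at -3.03 and -2.61 log2. Lymphocyte markers stayed under the filter. Of 8 adipocyte markers 7 averaged at least 1 TPM in each tissue, 6 of them lower in heart and 1 higher. After rescaling 3 of the 7 were lower and 1 higher. Of the 8, 5 had their lower value at the shared low level. Adipoq, adiponectin, averaged 9.84 TPM in heart and 18.4 TPM in muscle. These values lie beside the fatty acid result, since Cd36, Fabp4 and Lpl are also made by endothelial or fat cells, and the part of cell make-up in it was not tested.

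Transcript choice was tested apart from gene level, as the share of a gene's TPM held by each annotated transcript. Salmon assigns reads that fit several transcripts by a model, so these shares are estimates. Of 7920 transcripts of 3848 genes, 286 in 183 genes differed by at least 20 percentage points at adjusted p under 0.05, which is 3.61%, with 137 higher (1.73%) and 149 lower (1.88%) in heart. Ldb3, which encodes the Z-disc protein Cypher, gave 64.7%, 65.5%, 62.8% and 64.7% of its TPM to Ldb3-203 in heart, against 0.0627%, 0.146%, 0.121% and 0.177% in muscle. Ldb3-207 held 8.82%, 7.22%, 7.36% and 6.55% in heart, against 76.9%, 77.3%, 76.2% and 76.8% in muscle. The groups were separate for both transcripts. Pdlim5, a related LIM protein, gave 62.1% ± 1.46 to Pdlim5-205 in heart and 1.09% ± 0.188 in muscle, and 15.2% ± 2.29 to Pdlim5-203 in heart and 91.5% ± 1.15 in muscle.

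The same held for genes beyond the Z-disc. Tpm3-205 held 4.65% ± 0.410 of the Tpm3 level in heart and 88.7% ± 2.04 in muscle, and Tpm3-201 held 55.8% ± 4.85 in heart and 0.464% ± 0.184 in muscle. For Aldoa, Aldoa-201 held 67.6% ± 2.81 in heart and 12.6% ± 3.29 in muscle, so the lower gene level in heart went with another main transcript. Triadin (Trdn), of the calcium release complex, gave 45.5% ± 1.84 to Trdn-202 in heart and 11.2% ± 0.733 in muscle. Abcc9, the regulatory subunit of ATP-sensitive potassium channels, gave 44.9% ± 3.68 to Abcc9-201 in heart and 5.85% ± 1.97 in muscle. Synpo2, an actin-bundling protein, gave 17.3% ± 10.3 to Synpo2-201 in heart and 91.9% ± 0.632 in muscle, with 32.7% in heart library 1.

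**Figure D5:**
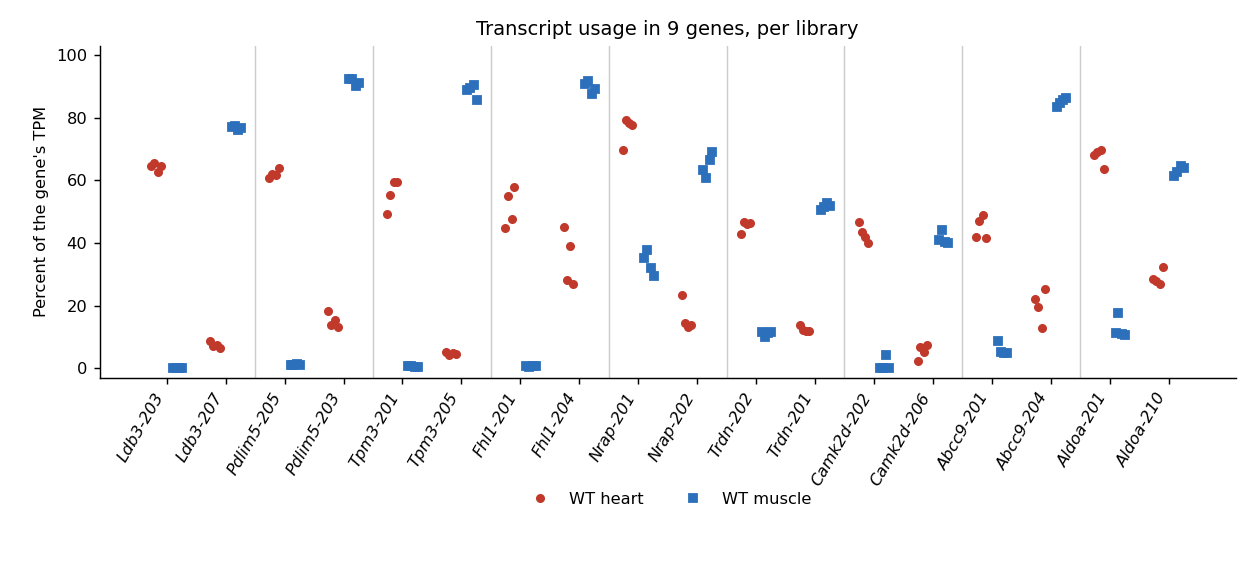
Share of the gene's TPM held by 18 transcripts of 9 genes, 2 transcripts a gene, in each WT heart library (red circles, left) and WT muscle library (blue squares, right). In each gene the first transcript holds more in heart and the second more in muscle, and no group overlaps its counterpart.

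Several of these switches include a coding exon that one transcript holds and the other skips, and 4 such exons are shown, 5′ to 3′ as transcribed, from GENCODE M21 on GRCm38. Nrap-202 holds exon 12 of 42 (chr19:56374364-56374468, minus strand), which Nrap-201 skips. Camk2d-206 holds exon 14 of 20 (chr3:126805857-126805916, plus strand), which Camk2d-202 skips. Map3k7-201 holds exon 12 of 17 (chr4:31994874-31994954, plus strand), which Map3k7-202 skips, and Ppp3cc-203 holds exon 11 of 15 (chr14:70225928-70225954, minus strand), which Ppp3cc-201 skips.
Nrap exon used in muscle: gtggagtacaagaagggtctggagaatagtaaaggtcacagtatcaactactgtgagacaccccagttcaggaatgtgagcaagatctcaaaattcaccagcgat
Camk2d exon used in muscle: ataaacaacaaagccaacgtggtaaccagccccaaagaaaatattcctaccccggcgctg
Map3k7 exon used in heart: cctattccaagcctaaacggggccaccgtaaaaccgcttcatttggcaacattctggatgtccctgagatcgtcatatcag
Ppp3cc exon used in muscle: atcactacatttcaagctgtccaaaag

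Each exon above is labelled by the tissue where the transcript that holds it had the larger share. Inclusion of the exon over all transcripts of its gene was not measured. All 4 lengths are multiples of 3. The exons that tell Pdlim5-205 and Pdlim5-203 apart, of 92 and 17 bases, are not, and they are not shown. Nrap-202, from a scaffold protein of the growing sarcomere, held 23.4%, 14.5%, 13.1% and 13.8% in heart, against 63.4%, 60.9%, 66.6% and 69.1% in muscle. Camk2d-206, from the calmodulin kinase of the heart, held 2.17%, 6.84%, 5.27% and 7.39% in heart, against 40.8%, 44.1%, 40.2% and 40.0% in muscle. Map3k7-201, from the kinase TAK1, held 47.3% ± 6.19 in heart and 9.24% ± 1.21 in muscle. Ppp3cc-203, from a calcineurin subunit, held 3.48% ± 3.22 in heart and 52.2% ± 3.33 in muscle, in a gene at only 10.5 TPM in heart and 16.3 TPM in muscle.

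The contrast was repeated in the 8 Mut libraries, which the WT comparison does not use. Of the 2561 genes at least 2-fold apart in WT, 2508 passed the filter in Mut, where 67.4% of all tested genes were called and 22.5% were called at least 2-fold apart. Of these 2508, 2472 (98.6%) were called in the same direction in Mut, and 2170 (86.5%) were also at least 2-fold apart. The sign was opposite for 5, among them Myl4, Sln and Myh7, and of these Myl4 was called in Mut. Myh7 differed by 0.69 log2 in Mut and by -2.33 log2 in WT, and Mut muscle averaged 61.7 ± 87.7 TPM and WT muscle 143 ± 27.7 TPM. The difference of the differences for Myh7 was 3.02 log2 with an adjusted p of 0.391.

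A test of the tissue difference itself between the lines called 5 of 12191 genes (0.041%), all with a lower heart minus muscle difference in Mut: Myl7, Sln, Myl4, Gng2 and Fgf12. The number depends on single libraries: 16 genes were called without WT heart library 3, 13 without Mut heart library 3, and 3 without Mut heart library 2 or 4, Mut muscle library 2, or WT muscle library 2 or 3. Myl7, the atrial light chain, had 2.64, 3.76, 20.6 and 2.74 TPM in Mut heart, against 371, 555, 96.8 and 626 TPM in WT heart. Muscle held 3.08 to 4.44 TPM in Mut and 3.57 to 6.59 TPM in WT. The 5 genes are lower in all 4 Mut hearts than in all 4 WT hearts, but the same values picked them. Fgf12 averaged 7.34 TPM in WT heart and under 1 TPM in WT muscle, Mut heart and Mut muscle. It passed the filter through WT heart alone, which set the direction of its change. Myl7, Sln and Myl4 are known markers of the atria. Among the WT hearts, library 3 was lowest for each of these 3. Nppa, the atrial natriuretic peptide, had 763, 1287.6, 143 and 2048.8 TPM in heart, against 8.08, 11.1, 16.2 and 10.9 TPM in muscle, and Bmp10, another atrial gene, had 93.6 TPM in heart library 4 and at most 0.451 TPM in the other heart libraries. The 16 atrial genes summed to 411 to 3602.7 TPM in heart and 73.4 to 97.5 TPM in muscle, whereas ventricular Myl2 ranged from 6936.4 to 8099.4 TPM in heart. How much atrium each heart sample held is not stated in the labels, and its part in these values was not tested.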

How the data were processed

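RNA of 8 WT libraries, 4 of heart and 4 of muscle, was compared, and the other 24 libraries served as points of comparison. Per the labels' protocols, total RNA was isolated on magnetic beads and the Illumina libraries keep the strand. The authors deposited TPM per transcript, made with Salmon per the submitters' processing notes. The version, transcriptome and build behind them are not stated in the sources used. The 147493 transcript identifiers were matched without version numbers to GENCODE M21, which matched 136081 (92.26%), and TPM was summed over each gene's transcripts into 51510 genes. Unmatched transcripts held 0.451% to 0.896% of a library's TPM and were left out. Where 2 annotated genes share a symbol (Aldoa, Atp5o), the one with the higher mean is reported. The symbol Smim30 is 2610001J05Rik in this annotation.

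Genes that averaged 1 TPM or more in the libraries compared were fitted with limma 3.58.1 (R 4.3.3) on log2(TPM + 1) with a mean-variance trend, two-sided, with Benjamini-Hochberg adjustment over all genes tested and a threshold of 0.05. With a pseudocount of 1, log2 differences understate the change of weakly expressed genes. Mut was fitted in the same way, and an interaction term over 16 libraries tested whether the difference depends on the line. Transcript usage was fitted as the log2 ratio of a transcript's TPM to the rest of its gene, each with 1 TPM added, in genes of at least 10 TPM in both tissues. The procedure was tested on simulated data with known differences. Alternatives were a pseudocount of 0.1, testing every gene or those of at least 5 TPM, scaling by median ratios, removal of mitochondrial and the 10 top genes before rescaling, no trend, a block for the replicate number, weights per library, 1 fit over 4 tissues, genes above the shared level, an adjusted p under 0.01, and leaving out each library. The count of genes at least 2-fold apart and its alternatives were chosen after seeing the data.

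Named genes are both members of 37 pairs, the 15 largest differences each way with groups that do not overlap, the 10 most abundant genes of each tissue, up to 6 called members of each of 45 lists, the 5 smallest interaction p, 15 shared striated genes and the 10 largest usage differences. Not all of these are printed, some genes and 1 further pair are not reported here, and other genes named were chosen after their values were seen. The members and lists were chosen with earlier results of these data known. Promoter windows are from RefSeq (GRCm38.p6) and exons from GENCODE M21 (GRCm38). The labels do not say how tissues were divided over extraction or sequencing runs. The limma p-values set the tissue difference against the spread between these samples of a tissue. Either may in part be technical, which cannot be told apart here. Tables and figures were made with Python 3.11.15, pandas 2.3.3, numpy 2.4.6, scipy 1.17.1 and matplotlib 3.10.9.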

Additional observations from a re-analysis of the deposited data

Results flagged for a closer look

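For each named gene the 4 libraries of each tissue were searched for a single value far from the other 3, by the gap to the nearest value over the whole range. Of 288 groups of 4 tested, 14 held such a value, and chance alone gives about 1 in 20. Bmp10, an atrial growth factor, stood out most in size: heart library 4 had 93.6 TPM, and the other heart libraries 0.134 to 0.451 TPM. Gng2, a G protein subunit, also had its highest value, 7.29 TPM, in heart library 4, with 3.84 to 4.33 TPM in the others.

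In heart library 1 Tnnc2, fast troponin C, was high at 274 TPM against 195 to 203 TPM. Its heart mean lay at the shared low level, at 1.46% of muscle. In the same library Pdlim5, a Z-disc protein, was low at 274 TPM against 317 to 320 TPM, and Thbs4 was low at 1.09 TPM against 1.43 to 1.47 TPM. Gapdh was lowest in heart library 3, at 1801.0 TPM against 1849.2 to 1851.0 TPM.

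In muscle library 3, 4 heart-type genes were high together. All 4 lay at the shared low level in muscle, with means of 1.74% to 2.0% of their heart level. Myh6 had 103 TPM against 71.0 to 75.5 TPM in the other muscle libraries, Tnni3 had 105 against 70.5 to 76.0 TPM, Tnnt2 had 167 against 116 to 122 TPM and Pln had 66.4 against 45.4 to 47.4 TPM. Myf6, a myogenic factor, was low in the same library, at 62.5 TPM against 85.3 to 89.7 TPM. Muscle library 2 was highest for Klhl41, at 385 TPM against 313 to 325 TPM, and for Tbx20, at 0.430 TPM against 0.249 to 0.280 TPM. Des was highest in muscle library 4, at 1175.4 TPM against 1051.1 to 1065.0 TPM.

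The difference between heart and muscle was not the same in Mut as in WT for 5 genes, by limma's interaction term. For Myl7 it was 0.40 log2 in Mut and 5.96 log2 in WT, a change of -5.56. Myl4 had -1.42 log2 in Mut and 4.07 log2 in WT, a change of -5.50, and Sln had -0.29 log2 in Mut and 4.22 log2 in WT, a change of -4.51. The change was -2.59 log2 for Fgf12 and -1.44 log2 for Gng2. Fgf12 passed the filter through WT heart alone, which set the direction of its change.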

How the results depend on the processing

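Of 2556 combinations of a named gene and an alternative setting, 2544 kept direction and call. Rescaling after removal of mitochondrial and the 10 top genes turned Cav3 to 0.25, Mef2a to 0.16 and Hrc to 0.13 log2, each called higher in heart. Rescaling also moved the 3933 genes higher in heart to 6607 and the 1197 at least 2-fold higher to 2414. A filter at 5 TPM, which tests fewer genes, left 2125 and 701 of these counts and 3 of the 5 genes that differ between Mut and WT. Usage counts of 137 higher and 149 lower became 57 and 59 with genes of at least 30 TPM. The 162 genes at the shared low level became 24 with a limit of 1% and 448 with 5%.

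Leaving out 1 library at a time gave 3587 to 4012 genes higher and 4613 to 5133 lower, 1094 to 1264 at least 2-fold higher and 1316 to 1451 lower. Usage counts ran from 129 to 147 higher and 140 to 159 lower, and the difference in mitochondrial share from 13.8 to 15.3 points. The number of genes that differ between Mut and WT ran from 3 to 16: 16 without WT heart library 3, 13 without Mut heart library 3, and 3 without Mut heart library 2 or 4, Mut muscle library 2, or WT muscle library 2 or 3. The cause was not tested.

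With the replicate number as a block, 4041 genes were higher and 5003 lower, usage differed in 139 and 150 transcripts and the interaction in 4 genes. Deviations of same-numbered heart and muscle libraries correlated at 0.109, -0.02, 0.07 and 0.148. Heart libraries 1, 3 and 4 correlated best with their own number, and heart library 2 with muscle library 3, at 0.186. With 2 of 4 under 0.1, the numbers were not taken to pair the libraries. Depth is unknown from TPM, so no limit for values of 0 can be given.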

Other observations

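Of 15 clock genes 13 averaged at least 1 TPM in each tissue. Of these 1 was higher in heart and 6 lower, or 5 higher and 3 lower after rescaling, so the balance depends on the scaling. Of all genes tested 32.3% were higher and 40.4% lower. Arntl, the core activator of the clock, is outside these counts, since it passed the filter through muscle alone. It had 0.523, 0.678, 1.09 and 1.11 TPM in heart, against 3.57, 4.12, 5.44 and 6.63 TPM in muscle. The filter thus set its direction (-1.67 ± 0.17 log2, difference ± SE). The labels give no time of day. Of 10 immediate early genes tested 1 was higher in heart and 3 lower. Nr4a1, which exercise induces in muscle, had 15.9, 5.30, 6.50 and 54.7 TPM in heart, against 50.3, 63.0, 51.8 and 100 TPM in muscle. Library 4 was highest in each tissue, and the tissues overlapped.

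The dystrophin complex links the cytoskeleton of the fibre to the matrix around it. Of 16 genes of this complex and the membranes 5 were higher in heart, 8 lower and 3 not called, shares near those of all genes, and 8 were higher and 6 lower after rescaling. Dmd, dystrophin, averaged 18.3 ± 0.771 TPM in heart and 29.0 ± 1.43 TPM in muscle (SD, n = 4 each). Cdh15, a cadherin of satellite cells, averaged 0.0763 ± 0.0281 TPM in heart and 5.32 ± 0.530 TPM in muscle. Upk3b, a marker of the mesothelium that covers the heart, had 2.32, 2.09, 0.594 and 6.20 TPM in heart, against 0.0761, 0.0775, 0.0420 and 0.0868 TPM in muscle. Heart library 3 was lowest for Upk3b and for the atrial peptide Nppa, and heart library 4 was highest for both.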
